A study of Mus musculus with 6 samples.

Results

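Small RNA host genes are long noncoding RNAs whose introns or exons carry small nucleolar RNAs (snoRNAs) or microRNAs. snoRNAs guide chemical modification of ribosomal and spliceosomal RNA, and microRNAs silence messenger RNAs through a short seed. The spliced host transcript is often a by-product: several Snhg transcripts start with a run of pyrimidines, as ribosomal protein mRNAs do, engage ribosomes and are removed by nonsense-mediated decay. Host RNA and embedded small RNA can therefore reach different steady levels from 1 primary transcript.

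The members are the 12 genes whose single symbol on the array platform starts with Snhg and a digit, starts with Mir and ends with hg, or is Gas5. They come from 30145 genes with a single platform symbol. Each of the 12 had 1 probe set, and none of the 12 shared its values with another probe set. The Snhg members were Snhg5, Snhg6, Snhg7os, Snhg9, Snhg10, Snhg11, Snhg14 and Snhg18, and the microRNA hosts were Mir1a-1hg, Mir100hg, Mir124-2hg and Mir143hg, the last now called Carmn. RefSeq types all 12 as lncRNA and places at least 1 small RNA gene inside 11 of them. Snhg7os, named for lying opposite Snhg7, holds none there and carries the family name without being a host in that annotation. Gas5 itself is no member, because its probe set also lists the snoRNA Snord47.

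Total RNA from the livers of 6 males, 8 weeks of age, was hybridised to 1 array per mouse. In the group titled HFD-inulin (3 arrays) the mothers had been given inulin, a fermentable plant fibre. In the group titled HFD (3 arrays) the mothers had a high-fat diet. Both titles carry HFD, so by the titles the groups share the high-fat diet and differ in inulin. The labels give no strain and no dose or period of inulin. They do not say whether mice of a group had separate mothers. Each p-value and SE rests on the spread among 3 and 3 samples, which limma draws toward that of all probe sets. Part of the spread may be technical. Defining hepatocyte markers were strong, with mean log2 signals from 8.03 to 11.5 in 9 measured genes. The deposited log2 signal of the median probe set was 1.22. Where 3 values are given for a group, they follow the order of its arrays 1, 2 and 3.

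The arrays did not divide by group in their main component, which held 53.1% of the variance. HFD-inulin arrays 1 and 2 and HFD array 1 lay on one side, and HFD-inulin array 3 and HFD arrays 2 and 3 on the other. Chromosome Y probe sets that share identical values were lower in the first 3 arrays (mean log2 signal 1.34 to 1.91) than in the other 3 (2.99 to 3.24). These are called the low-signal and high-signal arrays below. Neutrophil markers also set 1 array apart: the mean log2 signal of 6 markers was 1.82 in HFD-inulin array 2 and 1.13 to 1.25 in the others, with S100a8, S100a9, Ltf and Retnlg high there and Ngp and Camp not. The mean of 4 cholangiocyte markers was 2.62 in that array and 2.08 to 2.25 in the others. Krt19 (3.04 there, 1.82 to 1.93 elsewhere), Krt7 and Epcam were highest there and Sox9 was not.

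The sequences around the RefSeq start sites show how differently these genes begin. Of the 12 members, 9 had an entry in the RefSeq promoter table (GRCm38.p6). Shown are the 5 Snhg members among these whose signal lay above that of the median probe set, from 70 bases before the annotated start to its first 30 bases, on the gene's strand. Capitals mark motifs, searched on both strands, whose letters follow the sequences.
Snhg18: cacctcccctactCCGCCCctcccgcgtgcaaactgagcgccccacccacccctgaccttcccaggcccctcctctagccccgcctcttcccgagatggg
Snhg9: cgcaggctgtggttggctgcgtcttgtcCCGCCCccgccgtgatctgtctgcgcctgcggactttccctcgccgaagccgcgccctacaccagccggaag
Snhg10: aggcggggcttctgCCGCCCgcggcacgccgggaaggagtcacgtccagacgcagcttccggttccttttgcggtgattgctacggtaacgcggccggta
Snhg5: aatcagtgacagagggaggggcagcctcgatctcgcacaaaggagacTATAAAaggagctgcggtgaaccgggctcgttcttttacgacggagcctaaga
Snhg11: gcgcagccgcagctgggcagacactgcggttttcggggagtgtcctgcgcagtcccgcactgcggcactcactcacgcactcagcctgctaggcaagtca
These lie on the minus strand at chr15:32244633-32244732 (Snhg18), chr17:24719936-24720035 (Snhg9), chr12:105032250-105032349 (Snhg10) and chr9:88522868-88522967 (Snhg5), and on the plus strand at chr2:158375643-158375742 (Snhg11).

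Snhg18, Snhg9 and Snhg10 each hold 1 GC box (GGGCGG), read here from the opposite strand, a motif found in 23.8% of 32851 windows of this length. Snhg5 holds a TATA box on the gene's own strand, and that motif (TATAAA) occurs in 5.23% of windows. Neither the CCAAT box, found by its letters (CCAAT) in 16.1% of windows, nor the E-box occurs in these 5 genes. The E-box (CACGTG) was found in 3.16% of windows. Snhg11 holds none of the motifs. A C followed by 4 pyrimidines, starting within 10 bases of the annotated start, occurs in Snhg18, Snhg9, Snhg10 and Snhg5 and not in Snhg11. It occurs in 30.7% of all windows, so the run is common. The window of Snhg18, the member with the smallest p, is 71.0% G and C, against a median of 55.0% over all windows. A high share was not particular to Snhg18. Among the 5 shown, Snhg10, Snhg11 and Snhg9, whose mean was the same in both groups, also lay above that median. Only Snhg5 lay below it.

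No member passed the test between groups, and the differences were small. Of the 12, 0 had an adjusted p under 0.05 in limma (Benjamini-Hochberg over 65956 probe sets), where 0% of all probe sets were called. Snhg18 alone had an unadjusted p under 0.05, against 5.15% of all probe sets (2.52% higher and 2.64% lower in HFD-inulin), so 1 of 12 is near the background. The member differences (HFD-inulin minus HFD) ran from -0.13 to 0.31 on the log2 scale, with a median of 0.0069, beside -0.0165 over all probe sets. In 6 of the 12 the difference was under 0.1 in size. The mean was higher in HFD-inulin in 8 of 12, against 43.5% of all probe sets, and Snhg9, whose difference rounds to 0.00, is one of those 8. After median centring it was higher in 9 of 12, against 56.2% of all probe sets. Low signals limit what can be seen: 4 of the 12 lay below the median probe set. In whole liver, fewer cells of a type and less RNA per cell cannot be told apart.

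**Figure D1:**
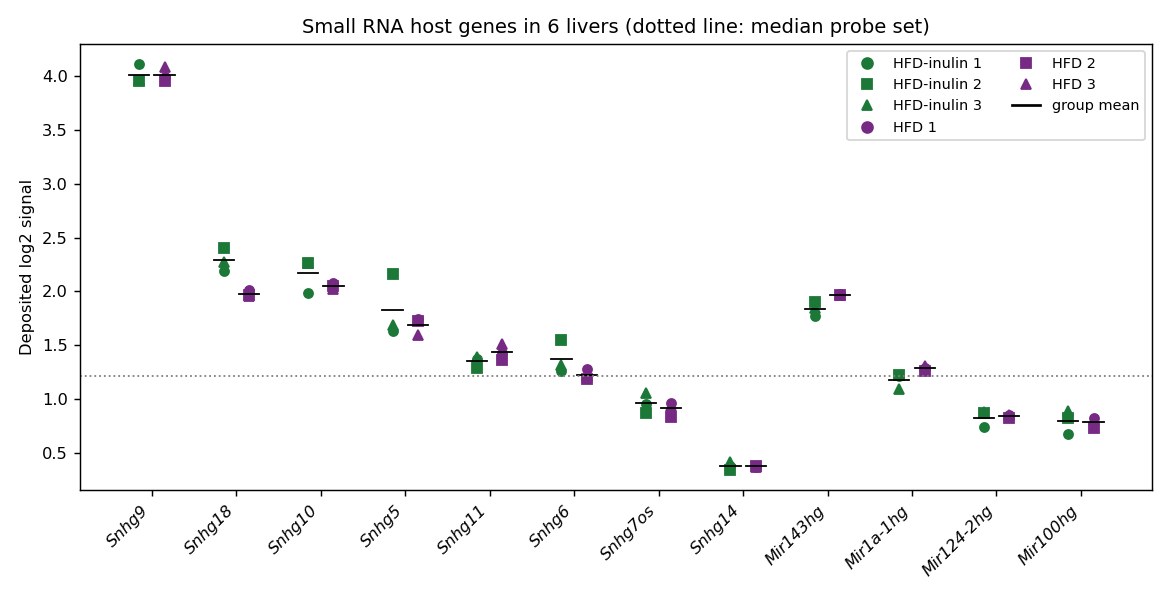
Deposited log2 signal (vertical axis) of the 12 host genes in the 6 arrays, with green for HFD-inulin, purple for HFD, a marker shape for each array number and a black bar for the group mean. Snhg18 has all 3 HFD-inulin arrays (2.19 to 2.40) above all 3 HFD arrays (1.96 to 2.01), and HFD-inulin array 2 stands above the rest in Snhg5 and Snhg6. Heights of different genes come from different probes and are not comparable.

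Among the snoRNA hosts, Snhg18, which carries Snord123, differed most. Its log2 signal was 2.19, 2.40 and 2.28 in HFD-inulin livers against 2.01, 1.96 and 1.96 in HFD livers. All HFD-inulin arrays lay above all HFD arrays. The gap was larger than the range of the HFD arrays but smaller than that of the HFD-inulin arrays. The means were 2.29 ± 0.11 (SD, n = 3) and 1.98 ± 0.03, a difference of 0.31 (SE 0.07) or a 1.24-fold ratio, with unadjusted p = 0.00471 and adjusted p = 0.902 in limma. The difference was 0.28 within the low-signal and 0.32 within the high-signal arrays, and 0.25 to 0.36 with each array left out in turn.

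Snhg6, the host of Snord87, measured 1.26, 1.55 and 1.32 in HFD-inulin livers against 1.28, 1.19 and 1.21 in HFD livers. HFD-inulin array 2 was high, array 1 lay inside the HFD range, and the groups overlapped. The difference of 0.15 (SE 0.09, limma adjusted p = 0.902) became 0.061 without HFD-inulin array 2. Snhg10, which holds the Cajal body RNA Scarna13, measured 1.98, 2.27 and 2.27 against 2.08, 2.05 and 2.03. Arrays 2 and 3 of HFD-inulin were high and array 1 was the lowest of all 6, for a difference of 0.12 (SE 0.09, limma adjusted p = 0.911). That difference was 0.21 without HFD-inulin array 1 and 0.072 without array 2. Within the low-signal arrays it was 0.049 and within the high-signal arrays 0.23.

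Snhg5, named after its values were seen, hosts snoRNAs of the U50 family. It measured 1.64, 2.16 and 1.68 in HFD-inulin livers against 1.74, 1.72 and 1.59 in HFD livers. The difference rested on the high value of HFD-inulin array 2. It was 0.14 (SE 0.15, limma adjusted p = 0.930) over all arrays and -0.0245 without that array. HFD-inulin array 2 was the highest array in 4 of the 12 members (Snhg5, Snhg6, Snhg10 and Snhg18), where 15.6% of all probe sets peak in it. After median centring or quantile normalization it was the highest in 6 of 12. That array had the lowest median signal of all arrays, so centring raised it most in every probe set. The share of all probe sets that peak in it after either step was not counted, so the rise cannot be assigned to the host genes. The mean signals of the neutrophil and cholangiocyte markers given above were high in that array, though not every marker was. Their part in these values was not tested.

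Snhg9, a short lncRNA that holds Snora78, had a signal well above that of the median probe set and gave the same mean in both groups. It measured 4.11, 3.96 and 3.96 in HFD-inulin and 3.99, 3.95 and 4.09 in HFD, with means of 4.01 ± 0.09 and 4.01 ± 0.07 (SD, n = 3) and an SE of the difference of 0.07. The groups overlapped over most of their range. Snhg11, a host best known from neurons, measured 1.35 ± 0.05 and 1.43 ± 0.07, a difference of -0.08 (SE 0.07, limma adjusted p = 0.915). Snhg7os lay below the median probe set at 0.96 ± 0.09 and 0.91 ± 0.07.

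**Figure D2:**
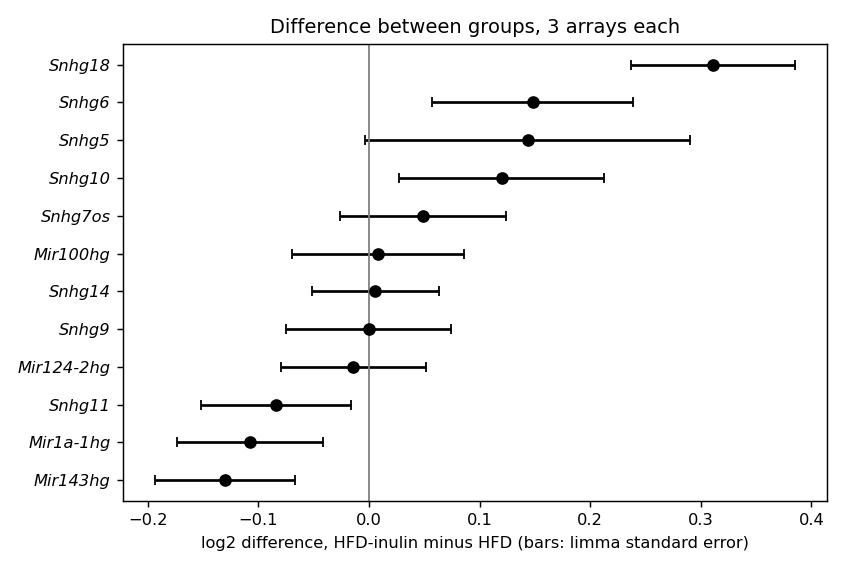
Log2 difference between HFD-inulin and HFD (horizontal axis) for each host gene, with bars for limma's standard error (3 arrays per group). Snhg18 lies highest at 0.31 and Mir143hg lowest at -0.13, and no member passed the adjusted threshold.

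Of the 4 microRNA hosts, 1 had a higher mean in HFD-inulin (43.5% of all probe sets) and 3 a lower one. In limma 0 of the 4 had an unadjusted p under 0.05 (5.15% of all probe sets). With so few genes these counts were not read as a pattern. Mir143hg, which encloses the precursors of miR-143 and miR-145a and is known from smooth muscle and other mesenchymal cells, measured 1.77, 1.91 and 1.85 in HFD-inulin arrays 1 to 3 and 1.97 in each of the 3 HFD arrays. All HFD-inulin arrays lay below all HFD arrays, with a difference of -0.13 (SE 0.06, limma adjusted p = 0.902). Mir1a-1hg, the host of muscle microRNAs of the miR-1 and miR-133 families, measured 1.21, 1.23 and 1.09 against 1.29, 1.26 and 1.31, near the median probe set. Its groups did not overlap either, with a difference of -0.11 (SE 0.07, limma adjusted p = 0.902). Groups were apart in 3 of the 12 members, these 2 lower and Snhg18 higher, against 10.3% of all probe sets (4.32% with HFD-inulin higher and 6.02% with it lower), and after median centring (9.28% of all probe sets) or quantile normalization (9.57%) in 1. The mean log2 signal of 4 stellate cell markers, a mesenchymal type of liver, was 4.43 to 4.80 in HFD-inulin and 4.58 to 4.75 in HFD. The markers did not move together: 2 had a higher mean in HFD-inulin (Dcn 0.12, Lrat 0.25) and 2 a lower one (Reln -0.41, Col1a1 -0.04). The part of these cells in the Mir143hg value was not tested.

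Mir100hg and Mir124-2hg were below the median probe set in every array, at 0.79 ± 0.11 and 0.79 ± 0.05 for Mir100hg and 0.83 ± 0.08 and 0.84 ± 0.02 for Mir124-2hg (SD, n = 3, HFD-inulin first). Mir100hg encloses the precursors of miR-100, let-7a and miR-125b, shown here because the array also measures them. The mature forms that RefSeq lists for the 5′ arms, with the seed (bases 2 to 8) in capitals, do not share a seed.
miR-100-5p: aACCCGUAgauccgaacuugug
miR-125b-5p: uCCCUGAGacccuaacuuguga
The probe set of precursor Mir100 measured 0.48 ± 0.13 and 0.54 ± 0.10, that of Mir125b-1 0.47 ± 0.06 and 0.49 ± 0.14 and that of Mirlet7a-2 0.80 ± 0.05 and 0.75 ± 0.14, all below the median probe set. Over all 8 microRNA precursors measured inside the 4 Mir hosts, differences ran from -0.057 to 0.13 and the smallest unadjusted p was 0.290. Mir143 (0.03, SE 0.20) and Mir145a (0.01, SE 0.15) differed by less than their error, beside -0.13 for their host.

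The embedded snoRNAs were read by probe sets that the choice of members did not use. Outside Snhg14, 4 hosts had a snoRNA with its own probe set. In limma 0 of the 4 snoRNAs had an adjusted p under 0.05 (0% of all probe sets). Unadjusted, 0 of the 4 had a limma p under 0.05 (smallest 0.0957), against 5.15% of all probe sets. Snord87, a box C/D snoRNA inside Snhg6, had a signal far above that of the median probe set. It measured 7.26, 7.32 and 7.32 in HFD-inulin livers against 7.20, 7.25 and 7.04 in HFD livers. The groups were just apart, with a difference of 0.14 (SE 0.08, limma adjusted p = 0.902), beside 0.15 for its host.

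Snora78, a box H/ACA snoRNA inside Snhg9, measured 3.70, 3.73 and 3.63 against 3.52, 3.60 and 3.57. All HFD-inulin arrays were above all HFD arrays, with a difference of 0.12 (SE 0.06, limma adjusted p = 0.902), while the host Snhg9 had 0.00. Snord123, inside Snhg18, measured 2.30, 2.47 and 2.61 against 2.70, 2.43 and 2.53, with overlapping groups. Its difference of -0.09 (SE 0.11, limma adjusted p = 0.937) was smaller than its error, where its host had 0.31. Gm25129, inside Snhg11, differed by -0.19 (SE 0.14, limma adjusted p = 0.909), lowest in HFD-inulin array 2 at 2.49. The difference between host and snoRNA was not tested in any pair. Snord87 and Snora78 were the 2 of 12 small RNAs measured outside Snhg14 (16.7%) whose groups were apart. Inside Snhg14 it was 2 of 171 (1.17%). Over all probe sets it was 10.3% (4.32% with HFD-inulin higher).

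**Figure D3:**
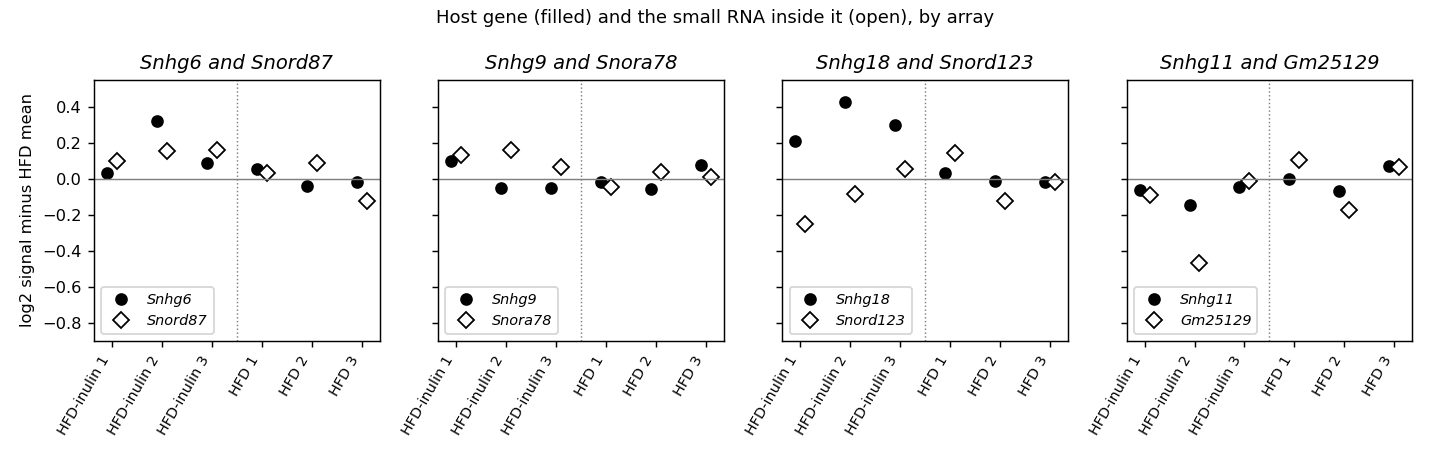
Log2 signal minus the HFD mean (vertical axis) in each array for 4 host genes (filled circles) and the snoRNA inside each (open diamonds). Snhg18 is above its HFD mean in all HFD-inulin arrays, while Snord123 is above its own in array 3 and below it in arrays 1 and 2. Snora78 is above its HFD mean in all HFD-inulin arrays, while Snhg9 is above its own in array 1 and below it in arrays 2 and 3.

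Snhg14 is the very long, paternally expressed host of the Prader-Willi region, whose transcript antisense to Ube3a and whose repeated snoRNAs are best known from neurons. The probe set that bears its name was near the floor, at 0.38, 0.34 and 0.41 in HFD-inulin livers against 0.37, 0.38 and 0.37 in HFD livers. It was higher than 1.61% of all probe sets, and with no detection calls its presence in liver was not assessed. A second probe set, listed under the older name C230091D08Rik, had means of 0.82 and 0.79.

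The small RNAs inside Snhg14 varied between arrays. RefSeq places 207 there, and 171 (170 snoRNAs and 1 small nuclear RNA) have a probe set of their own. Their median log2 signal was 1.14, 0.71 and 1.40 in HFD-inulin livers against 0.90, 1.70 and 1.79 in HFD livers. The low-signal arrays were low and the high-signal arrays high, whatever their group. In 148 of the 171 (86.5%) each low-signal array lay below each high-signal array, as it did in 12.6% of all probe sets. These probe sets are not separate observations, since 116 of them share their 6 values exactly with another and the 171 hold 78 distinct profiles, of which 58 (74.4%) show that order. The array division was itself named from chromosome Y probe sets with shared values. How often other probe sets with shared values show the order was not counted, so it cannot be called particular to Snhg14.

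Between groups the 171 had a median difference of -0.31, with 7 higher in HFD-inulin (43.5% of all probe sets), but limma called 0 of them after adjustment. Without adjustment 2 (1.17%) had p under 0.05, Gm22252 (-0.37, SE 0.13) and Gm22496 (-0.40, SE 0.16), both named after their values were seen, against 5.15% of all probe sets. The median difference was 0.062 among low-signal arrays, where HFD-inulin 1 and 2 face HFD 1, and -0.242 within the others (HFD-inulin 3 against HFD 2 and 3), so its sign depended on the arrays compared. With the array division as a block it was -0.122. It was -0.645 without HFD array 1, where 81 of the 171 had an unadjusted p under 0.05 (6.12% of all probe sets), -0.0815 without HFD-inulin array 2, and -0.184 when HFD array 3 was left out. It was -0.529 without HFD-inulin array 3, with 7 of the 171 under 0.05 (9.89% of all probe sets).

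**Figure D4:**
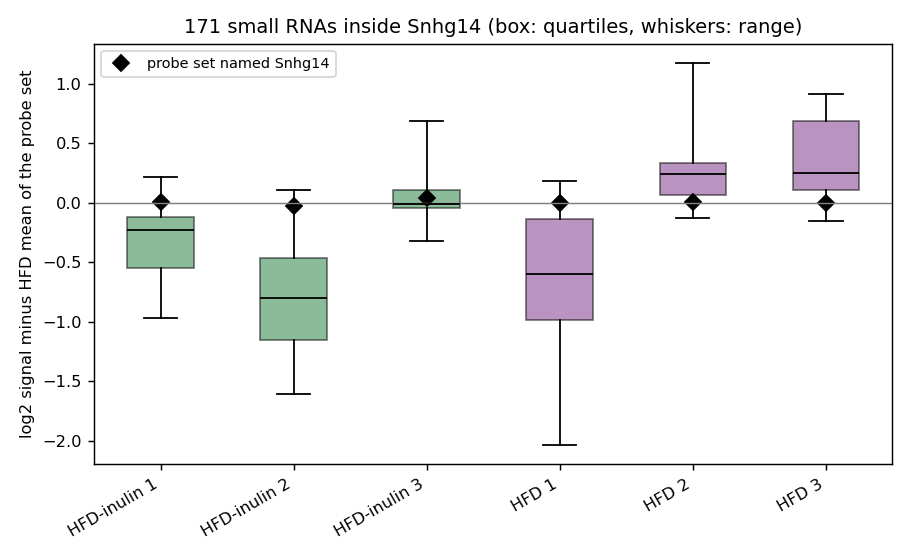
Log2 signal minus each probe set's HFD mean (vertical axis) for the 171 small RNAs inside Snhg14 in each array (box, quartiles and median; whiskers, full range; green, HFD-inulin; purple, HFD), with diamonds for the probe set named Snhg14. HFD array 1 (median -0.599) lies low with HFD-inulin array 2 (-0.802), apart from HFD arrays 2 and 3 (0.239 and 0.250), while the diamonds stay near 0.

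Host genes that could not be read alone were left out of the counts. On the array 13 probe sets list a host together with other genes, 9 under the host's platform name (Gas5, Snhg1, Snhg3, Snhg4, Snhg7, Snhg8, Snhg12, Mir17hg and Mir22hg) and 4 under an older one (Snhg16, Snhg20, Mir205hg and Mir124a-1hg). Their signal cannot be given to 1 gene. The 13 differences ran from -0.121 to 0.205, with 8 higher in HFD-inulin (43.5% of all probe sets) and 0 past the adjusted threshold in limma. Unadjusted p was under 0.05 for 1, the probe set listing Snhg8 with Snora24 (5.15% of all probe sets), and in 2, that one and the one listing Gas5 with Snord47, the groups were apart (10.3%).

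Another 6 probe sets carry an older symbol that RefSeq updates to a single host (Snhg14, Snhg15, Snhg17, Mir9-3hg, Mir99ahg and Mir100hg). Their differences ran from -0.069 to 0.030, none with an unadjusted p under 0.05 in limma (5.15% of all probe sets). Snhg17 measured 2.30 ± 0.11 against 2.35 ± 0.11 (SD, n = 3, HFD-inulin first), and Snhg15, a short-lived stress-responsive host, differed by -0.03 (SE 0.07).

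The proteins that assemble snoRNAs or process these transcripts were read from lists. Of 16 measured genes of snoRNA-protein complexes and their assembly, 16 had a higher mean in HFD-inulin (43.5% of all probe sets), with a median difference of 0.146 beside -0.0165 over all probe sets, and 0 passed the adjusted threshold in limma. Unadjusted, p was under 0.05 for 2 genes with a higher mean and 0 with a lower one, against 2.52% and 2.64% of all probe sets. Fbl, the 2′-O-methyltransferase of box C/D complexes, measured 5.11, 5.15 and 5.14 in HFD-inulin livers against 5.04, 4.97 and 4.86 in HFD livers. The groups were apart, with a difference of 0.18 (limma adjusted p = 0.902). Ruvbl2, a helicase of the assembly machinery, differed by 0.16, and its partner Ruvbl1 by 0.25 with overlapping groups. Averaged over the 16 genes, the log2 signal lay 0.12, 0.28 and 0.02 over the HFD mean in the HFD-inulin livers. HFD livers lay at 0.07, -0.03 and -0.03, so HFD-inulin array 3 was below HFD array 1.

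Of 14 measured genes of nonsense-mediated decay, 10 were higher in the mean (43.5% of all probe sets) and 4 lower, with a median of 0.088. An unadjusted p under 0.05 was found for 1, a lower one, where 5.15% of all probe sets have one (2.64% lower), so the count is near the background. That 1 was Smg1, the kinase that phosphorylates UPF1, at 3.87 ± 0.06 and 4.02 ± 0.01 (SD, n = 3, limma adjusted p = 0.902). Upf1, the helicase at the centre of the pathway, differed by 0.18 with overlapping groups. Of 13 measured genes of microRNA processing, 9 were higher in the mean (43.5% of all probe sets). In limma 0 of the 13 had an unadjusted p under 0.05 (5.15% of all probe sets). The median was 0.048. Tarbp2, a partner of Dicer, had the smallest unadjusted p of the list and differed by 0.09 (SE 0.06, limma adjusted p = 0.906), and Drosha, the nuclease of the first cut, had the largest difference at 0.12 (SE 0.13).

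Of 21 measured mRNAs with a pyrimidine start or their regulators, ribosomal proteins apart, 15 were higher in the mean (43.5% of all probe sets), with a median of 0.091. Unadjusted, p was under 0.05 for 3 genes with a higher mean and 0 with a lower one, against 2.52% and 2.64% of all probe sets. The 3 were the elongation factor genes Eef1d (0.25) and Eef1g (0.50, SE 0.21) and the initiation factor gene Eif3h (0.16). In Eef1g the groups overlapped, at 6.28, 6.55 and 5.68 in HFD-inulin livers against 5.71, 5.59 and 5.70 in HFD livers. None of the 21 passed the adjusted threshold in limma. The average of the list was 0.16, 0.20 and -0.01 for HFD-inulin livers relative to HFD, and 0.05 for HFD array 1, so the groups overlapped here too.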

How the data were processed

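Liver RNA of 6 mice was measured on 1 Affymetrix array each. The values are the authors' deposited log2 signals of 65956 probe sets. The submitters' processing notes name Affymetrix Expression Console 1.0. How signals were summarized, corrected and mapped is not given in the sources used here. Log base 2 was inferred from the range of the values. With 3 arrays per group, their number limits precision. No detection calls were used.

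The platform annotation named the probe sets: 30604 list 1 symbol, 2146 several and 33206 none. Older symbols were updated through RefSeq (GRCm38.p6). A small RNA counted as embedded where RefSeq places it inside the host, on either strand. Of several probe sets of a gene the one with the highest mean was kept.

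Groups were compared with limma 3.58.1 in R 4.3.3 (lmFit and eBayes, two-sided, no covariate, no filter) over all probe sets, with Benjamini-Hochberg adjustment and a threshold of 0.05. The fit was tested on simulated data first. Members and lists were chosen with earlier results of these data known. Members were described array by array where their mean lay 1 log2 unit above the median probe set, where they were among the 5 smallest p, or where the groups did not overlap. Up to 3 genes were named per list.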

Additional observations from a re-analysis of the deposited data

How the results depend on the processing

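Under 17 other settings none of the 12 host genes passed an adjusted p of 0.05 where limma gave a test, and Snhg18, Snhg6, Snhg10, Mir143hg and Mir1a-1hg kept their sign. The replicate number as a block left 0 calls among members. Unadjusted p in limma was then under 0.05 for 1 member and 3 hosted small RNAs (5.08% of all probe sets). The labels do not say that the numbers pair mice, so they were not read as pairs. Same-numbered arrays correlated at 0.261, -0.278 and 0.404 in their deviations. Both arrays numbered 1 are low-signal and both numbered 3 are high-signal, so these correlations cannot show whether mice were paired. Leaving out dim probe sets kept 8 members, of which 5 had a higher mean (45.5% of the probe sets kept), with a median of 0.060. It gave 0 hosted small RNAs under 0.05, and Gm22252 and Gm22496 were themselves among the dim probe sets left out. Members with groups apart numbered 1 after median centring (9.28% of all probe sets) and 1 after quantile normalization (9.57%). They numbered 9 within the high-signal arrays (68.1% of all probe sets) and 6 within the low-signal arrays (67.2%), where 1 array faces 2 and most probe sets are apart. Within the low-signal arrays 5 members had a higher mean (45.2% of all probe sets). Hosted small RNAs under 0.05 numbered 2 over all arrays, 4 with the array division as a block (5.19% of all probe sets) and 8 with array weights (7.46%); the cause was not tested. Snhg9, at 0.00, turned to -0.0071 with that block, -0.018 after quantile normalization and -0.058 within the high-signal arrays.

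With each array left out in turn, 1 to 2 members had an unadjusted p under 0.05 in limma (3.18% to 9.89% of all probe sets). Hosted small RNAs under 0.05 numbered 0 to 81 in the same fits. Groups were apart in 3 to 6 members (17.8% to 27.0% of all probe sets), and 6 to 8 had a higher mean (41.2% to 47.9%). The member median ran from -0.00566 to 0.0411 and Snhg9 from -0.0506 to 0.0385. Counting hosts under older symbols, chosen after seeing the data, gave 1 member under 0.05 (5.15% of all probe sets) and a median of 0.00129. All 12 had 1 probe set on the platform, and none was numbered on another chromosome. Signals near the median probe set limit what differences could be seen.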
